A study of Mus musculus with 6 samples.

Results

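The 10 genes described here encode the mouse MHC class I heavy chains H2-K1, H2-D1, H2-Q4, H2-Q6, H2-Q7, H2-T22, H2-T23, H2-T24 and H2-M3 and their shared light chain, beta-2 microglobulin (B2m). They were chosen by symbol, and all 10 were found among the 22186 genes of the expression table. Messenger RNA was sequenced from primary adipose-derived stromal cells (ADSCs), fibroblast-like cells of fat that can form several mesenchymal tissues, of WT genotype. In 1 group the ADSCs had shared their culture for 48 h with Treg, regulatory T cells, which dampen immunity (Treg co-culture, n = 3). The other is the labelled control, primary ADSCs with no co-culture named (control, n = 3). The libraries carry batch numbers 1 to 3, and each batch holds 1 library of each group. The labels give no strain, age or sex of the mice, do not say whether replicates came from separate animals or cultures, and do not say how Treg were kept apart or removed. The p-values therefore reflect only how far these libraries varied, and that variation may be technical. No group was kept with other cells, so an effect of Treg and one of co-culture as such cannot be told apart.

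A class I molecule is a heavy chain bound to B2m, and it carries a short peptide from inside the cell to the surface. Classical chains show such peptides to CD8+ T cells and restrain natural killer cells, while non-classical chains are less variable, often less abundant, and serve narrower ligands or receptors. Interferons raise the transcription of most of these genes, together with the transporters and proteases that supply the peptides.

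Values are TPM (transcripts per 1000000), a share of all transcripts corrected for gene length, so levels can be compared between genes. Every library adds up to 1000000 TPM, and the sequencing depth is unknown, so counting error has no interval here. Treg co-culture 1 stood apart in transcripts of other organs. Its 5 hepatocyte markers summed to 88.2 TPM, against at most 0.462 TPM in any other library, and its 5 adult cardiomyocyte markers to 23.9 TPM, against at most 1.20 TPM. The log2 fold changes of the members tested are given with and without it. All 11 stromal markers of the labelled cell type passed the filter, and 7 fell and 3 rose, beside 18.0% and 19.8% of all genes tested. Their summed level was between 8922 and 9283 TPM in Treg co-culture libraries and between 10088 and 10550 TPM in control libraries. The lower ones included Lum (log2 fold change -1.32) and Pdgfra (-0.45), and the higher ones Cd44 (0.58). The most abundant were Col1a1, Itgb1 and Dcn, at means of 5939, 1115 and 576 TPM in Treg co-culture libraries and 6705, 1057 and 1018 TPM in control libraries. Skeletal muscle markers were present as well. Myod1, Myog, Acta1, Myh3 and Mylpf summed to between 2727 and 2793 TPM in Treg co-culture libraries and to between 1022 and 1059 TPM in control libraries.

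The light chain and most of the well-expressed heavy chains were lower after Treg co-culture, with means between 1.20-fold and 1.47-fold lower. Among the 8 members tested, 6 fell and 0 rose, the lower ones being B2m, H2-K1, H2-D1, H2-T23, H2-T22 and H2-Q4. By the same rule (adjusted p under 0.05) 18.0% of all genes tested fell and 19.8% rose. The median log2 fold change of the 8 members was -0.37, beside 0.00 for all 12405 genes tested. In limma with Benjamini-Hochberg adjustment over all genes, 5 of the members fell in every fit that left out 1 library, and H2-Q4 did not. The groups did not overlap for 7 of the 8 members, these 6 and H2-T24, which lay higher in Treg co-culture libraries. The same held for 49.3% of all genes tested, 2975 with the Treg co-culture libraries lower and 3140 with them higher. Without Treg co-culture 1 the same counts of 6 lower and 0 higher members were found.

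**Figure D1:**
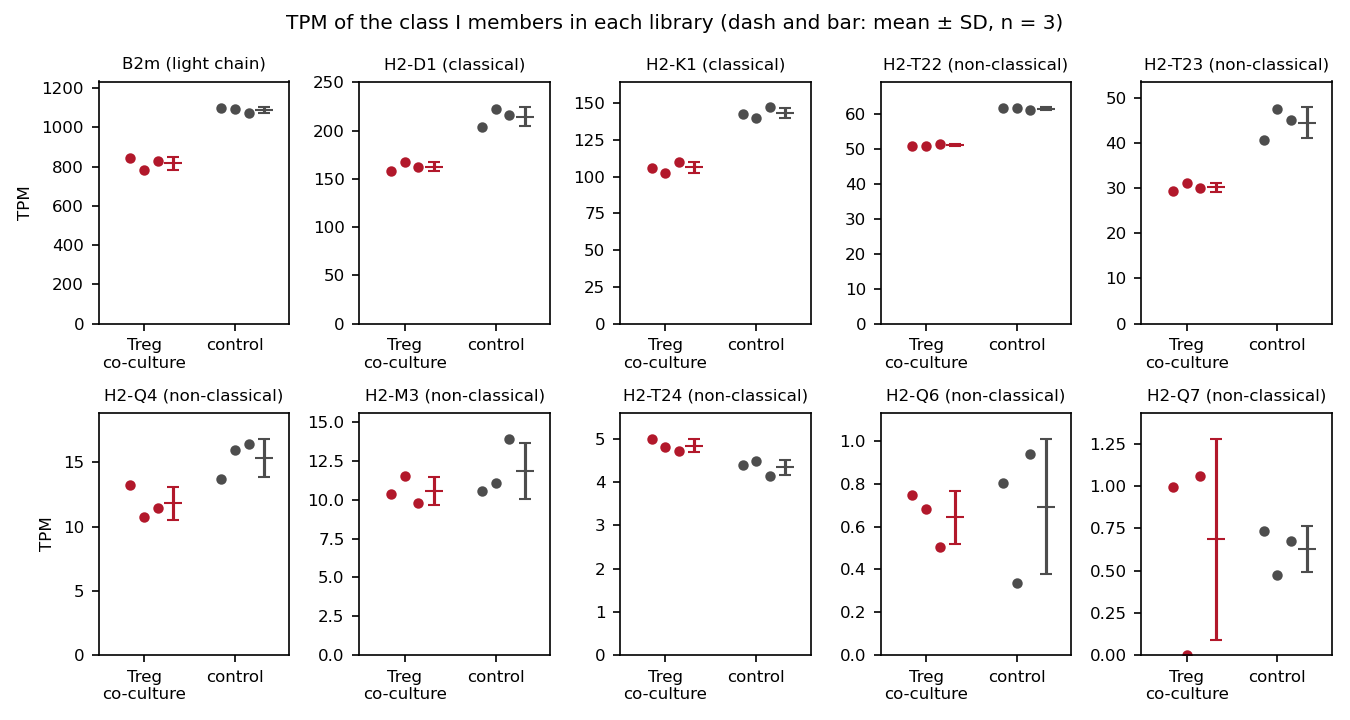
Each panel plots the TPM of 1 member in the 3 Treg co-culture libraries (red) and the 3 control libraries (grey), with a dash and bar for the mean ± SD, on its own axis from 0. B2m lay between 781 and 845 TPM in Treg co-culture libraries and between 1073 and 1099 TPM in control libraries, whereas H2-Q6 and H2-Q7 stayed near or under 1 TPM in both groups.

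B2m (NCBI Gene 12010), the light chain of class I molecules, was the most abundant member. Its TPM were 845, 781 and 828 in Treg co-culture libraries 1 to 3, against 1099, 1092 and 1073 in control libraries 1 to 3. All Treg co-culture values lay below all control values, and the mean was 1.33-fold lower. On the log2(TPM + 1) scale used for every test here, B2m changed by -0.41 (SE 0.03, limma adjusted p = 2.32e-06), and within batches 1 to 3 the differences were -0.38, -0.48 and -0.37. Without Treg co-culture 1 the log2 fold change was -0.44.

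H2-K1 and H2-D1 are the classical chains, the main peptide receptors read by CD8+ T cells. H2-K1 (NCBI Gene 14972) had 106, 103 and 110.4 TPM in Treg co-culture libraries, against 143, 140.3 and 147 TPM in control libraries. Its mean was 1.35-fold lower, with a log2 fold change of -0.43 (SE 0.04, limma adjusted p = 1.1e-05). H2-D1 (NCBI Gene 14964) had 158, 168 and 162 TPM in Treg co-culture libraries, against 204, 223 and 217 TPM in control libraries. Neither gene's groups overlapped. H2-D1 was 1.32-fold lower, with a log2 fold change of -0.40 (SE 0.04, limma adjusted p = 2.59e-05). The within-batch log2 differences of H2-K1 were -0.43, -0.44 and -0.41, and those of H2-D1 were -0.36, -0.40 and -0.42. Both chains thus fell in each batch. Without Treg co-culture 1 the log2 fold changes were -0.42 for H2-K1 and -0.38 for H2-D1.

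The sequences before the start sites of these 3 genes are shown because the genes moved together and the class I promoter is a textbook case of shared elements. Each runs 5′ to 3′ over the 250 bases before the annotated start in RefSeq GRCm38.p6, and 9 of the 10 members had an entry (H2-T24 had none). Capitals mark matches, on either strand, to 5 patterns: a short interferon-response form GAANNGAAA, a long form (GAAA, any 2 bases, GAAA), a kappa-B-like pattern (GGG, any 2 bases, TT, any base, CC), the CRE-like core TGACG and the CCAAT box CCAAT. The windows are chr2:122147437-122147686, plus strand for B2m, chr17:34000348-34000597, minus strand for H2-K1 (the first of 2 listed) and chr17:35262844-35263093, plus strand for H2-D1.
B2m: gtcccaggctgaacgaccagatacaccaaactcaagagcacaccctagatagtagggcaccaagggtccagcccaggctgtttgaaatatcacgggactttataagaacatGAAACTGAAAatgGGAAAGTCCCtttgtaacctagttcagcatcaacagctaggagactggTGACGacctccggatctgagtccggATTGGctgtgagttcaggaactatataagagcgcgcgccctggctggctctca
H2-K1: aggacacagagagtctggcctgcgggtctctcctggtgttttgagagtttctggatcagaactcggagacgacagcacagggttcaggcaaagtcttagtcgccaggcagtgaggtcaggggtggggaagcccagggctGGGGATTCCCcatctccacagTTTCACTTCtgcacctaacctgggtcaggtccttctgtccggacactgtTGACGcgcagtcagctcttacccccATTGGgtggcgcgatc
H2-D1: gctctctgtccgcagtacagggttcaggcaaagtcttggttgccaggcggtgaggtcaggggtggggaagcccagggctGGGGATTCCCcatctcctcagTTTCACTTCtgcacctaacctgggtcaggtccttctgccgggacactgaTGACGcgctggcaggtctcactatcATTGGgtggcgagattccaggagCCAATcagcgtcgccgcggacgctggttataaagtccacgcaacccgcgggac

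The classical pair shared the order and the spacing of the elements. In both, 11 bases lay between the kappa-B-like match and the short interferon-response match, then 40 bases to the CRE-like core and 20 bases to a CCAAT box, and the best local alignment of the windows was 91.0% identical over 177 columns. The B2m window, on another chromosome, held the long interferon-response form and a kappa-B-like match 3 bases downstream of it. As in the classical pair, 20 bases separated its CRE-like core from its CCAAT box. A match describes letters and shows no binding, and the patterns were chosen after the windows had been read.

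The non-classical chains were uneven. H2-T23 (NCBI Gene 15040) encodes Qa-1, which shows leader peptides of other class I chains to the CD94/NKG2 receptors of natural killer and T cells. It had 29.2, 31.0 and 30.1 TPM in Treg co-culture libraries, against 40.7, 47.4 and 45.1 TPM in control libraries. The groups lay well apart, and its 1.47-fold lower mean was the largest proportional fall among the members. H2-T23 had a log2 fold change of -0.54 (SE 0.06, limma adjusted p = 7.35e-05), and 3.61% of all genes tested had a lower one. Within batches 1 to 3 the values were -0.46, -0.60 and -0.57, and without Treg co-culture 1 it was -0.52.

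H2-T22 (NCBI Gene 15039) encodes a chain that certain gamma-delta T cells recognise without a peptide. Its TPM were 51.0, 51.0 and 51.5 in Treg co-culture libraries, against 62.0, 61.7 and 61.2 in control libraries. Relative to their mean these were the tightest replicates of any heavy chain, and the mean was 1.20-fold lower. H2-T22 had a log2 fold change of -0.26 (SE 0.04, limma adjusted p = 0.00037), the same as without Treg co-culture 1. In every batch the fall of H2-T22 (-0.27, -0.27 and -0.25) was smaller than that of H2-T23. H2-T23 thus stood at 0.573, 0.608 and 0.584 of the H2-T22 level in Treg co-culture libraries, against 0.657, 0.768 and 0.737 in control libraries, with no overlap. This ratio was picked after its values were seen and is given with no test.

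H2-Q4 (NCBI Gene 15015), of the Qa region, had 13.2, 10.8 and 11.4 TPM in Treg co-culture libraries, against 13.7, 16.0 and 16.4 TPM in control libraries. The groups came close, with Treg co-culture 1 just below control 1. The mean was 1.30-fold lower, with a log2 fold change of -0.35 (SE 0.10, limma adjusted p = 0.0154), and within batches the values were -0.04, -0.53 and -0.49. The call was lost without Treg co-culture 2 (limma adjusted p = 0.058), control 2 (0.0552) or control 3 (0.0588). Without Treg co-culture 1 it held, at a log2 fold change of -0.43.

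H2-M3 (NCBI Gene 14991), which presents N-formylated peptides of bacteria and mitochondria, did not pass the test. It had 10.4, 11.5 and 9.76 TPM in Treg co-culture libraries, against 10.6, 11.1 and 13.9 TPM in control libraries, and the groups overlapped. Its log2 fold change was -0.15 (95% interval -0.39 to 0.09, limma adjusted p = 0.317), a range that reaches into the falls of H2-T22 and H2-Q4. H2-T24 (NCBI Gene 15042) had 5.00, 4.82 and 4.72 TPM in Treg co-culture libraries, against 4.385, 4.49 and 4.15 TPM in control libraries. Its groups did not overlap, yet the log2 fold change of 0.13 (95% interval -0.09 to 0.35) did not pass (limma adjusted p = 0.343). That interval lies above the log2 fold changes of the 6 members that fell. Without Treg co-culture 1 the log2 fold changes were -0.14 for H2-M3 and 0.11 for H2-T24.

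H2-Q6 and H2-Q7, relatives in the Qa-2 family of which H2-Q7 encodes a surface form tethered by a lipid anchor, lay under the filter of a mean of 1 TPM and were not tested. H2-Q6 (NCBI Gene 110557) had 0.745, 0.680 and 0.505 TPM in Treg co-culture libraries, against 0.805, 0.337 and 0.938 TPM in control libraries. H2-Q7 (NCBI Gene 15018) was listed at 0.992, 0 and 1.06 TPM in Treg co-culture libraries, against 0.735, 0.474 and 0.676 TPM in control libraries. Both genes' groups overlapped.

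Windows of 3 non-classical genes are shown next, since H2-T23 fell furthest, H2-T22 fell least among those that passed, and H2-M3 did not pass. They are chr17:36032702-36032951, minus strand for H2-T23, chr17:36042743-36042992, minus strand for H2-T22 and chr17:37269984-37270233, plus strand for H2-M3, again from RefSeq GRCm38.p6 with matches in capitals.
H2-T23: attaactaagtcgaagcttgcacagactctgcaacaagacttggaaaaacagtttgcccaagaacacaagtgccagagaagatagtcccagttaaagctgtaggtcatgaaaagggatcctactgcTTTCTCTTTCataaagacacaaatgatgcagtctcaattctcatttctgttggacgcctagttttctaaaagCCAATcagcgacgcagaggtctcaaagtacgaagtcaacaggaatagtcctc
H2-T22: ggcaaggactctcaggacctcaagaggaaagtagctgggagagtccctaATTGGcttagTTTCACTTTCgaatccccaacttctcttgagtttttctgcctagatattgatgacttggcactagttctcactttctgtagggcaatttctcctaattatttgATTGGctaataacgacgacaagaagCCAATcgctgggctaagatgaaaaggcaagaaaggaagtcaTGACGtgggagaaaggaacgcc
H2-M3: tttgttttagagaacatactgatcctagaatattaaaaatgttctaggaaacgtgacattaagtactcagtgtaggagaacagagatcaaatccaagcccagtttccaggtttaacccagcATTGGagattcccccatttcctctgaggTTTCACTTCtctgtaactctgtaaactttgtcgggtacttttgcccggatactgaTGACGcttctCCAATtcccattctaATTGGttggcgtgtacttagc

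Every member with a window held an interferon-response match in 1 of the forms, the short one in 6 of 9 and the long one in 3 of 9. Of 27025 windows of the same length, 1 per gene, 6.34% held the short form, 3.04% the long form and 8.91% either. The long form was in B2m, H2-T22 and H2-T23, and the short form in H2-K1, H2-D1, H2-Q4, H2-Q6, H2-Q7 and H2-M3. A CCAAT box stood in 9 of 9 windows, beside 34.5% of all windows, a CRE-like core in 7 of 9, beside 17.9%, and a kappa-B-like match in 6 of 9, beside 4.00%. The window of H2-T23 held neither of these last patterns, and those of H2-T22 and H2-M3 held no kappa-B-like match. Matches of different patterns did not overlap. All 4 kinds, with either interferon-response form, stood together in 5 of 9 windows (B2m, H2-K1, H2-D1, H2-Q4 and H2-Q7), beside 0.0407% of all windows. Because the patterns were chosen after these windows had been read, the shares are descriptions and no test. Nor are the windows independent. Best local alignments were 97.2% identical for H2-Q6 and H2-Q7 and 91.0% for H2-K1 and H2-D1. The window of H2-M3 held the same short interferon-response form as those of the classical pair. The part of any of these patterns in the levels was not tested.

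**Figure D2:**
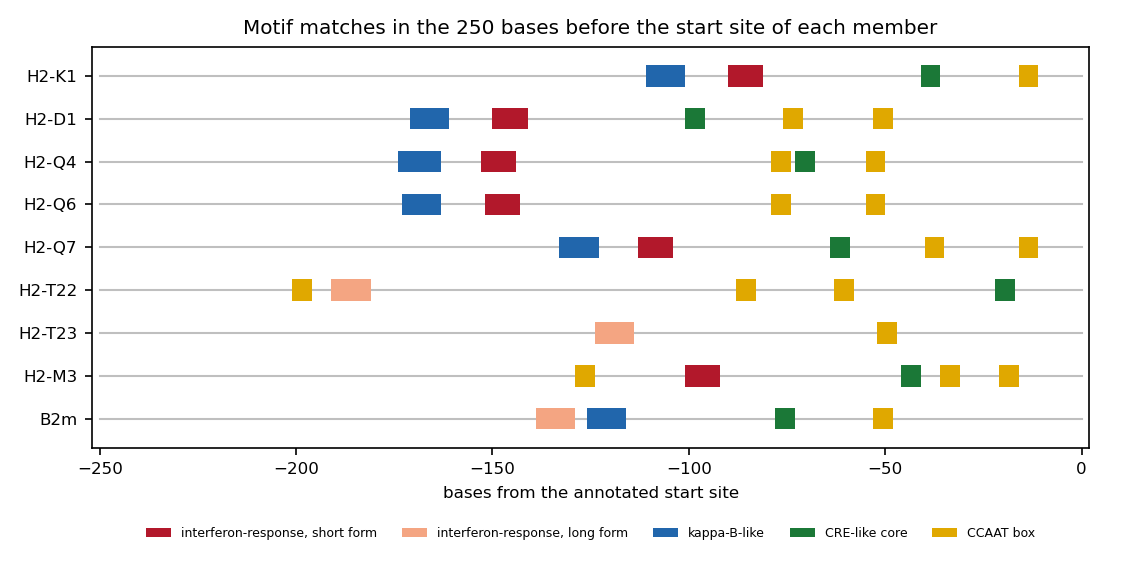
Each line is the 250 bases before the annotated start of 1 member (x axis, bases from the start), and boxes mark matches to the 5 patterns on either strand. The kappa-B-like and short interferon-response matches stand 10 or 11 bases apart in H2-K1, H2-D1, H2-Q4, H2-Q6 and H2-Q7, while H2-T23 has an interferon-response match and a CCAAT box alone.

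The order of the levels was B2m, H2-D1, H2-K1, H2-T22, H2-T23, H2-Q4, H2-M3 and H2-T24 in both groups, followed by H2-Q6 and H2-Q7, whose order differed between the groups. In both groups the values of H2-Q4 overlapped those of H2-M3, and those of H2-Q6 overlapped those of H2-Q7. All other neighbours were separated in every library. The classical chains together held 264, 271 and 272 TPM in Treg co-culture libraries, against 346, 363 and 364 TPM in control libraries, a 1.33-fold lower mean. The 7 non-classical chains together held 110.6, 109.8 and 109.0 TPM in Treg co-culture libraries, against 133, 141 and 142 TPM in control libraries, a 1.26-fold lower mean. Non-classical chains thus made up 29.5%, 28.8% and 28.6% of heavy chain TPM in Treg co-culture libraries and 27.7%, 28.0% and 28.1% in control libraries. These shares did not overlap but differed by about 1 percentage point in the mean (29.0% ± 0.491 and 28.0% ± 0.212, SD, n = 3 each). Single chains went both ways. H2-T22 averaged 13.5% of heavy chain TPM in Treg co-culture libraries and 12.4% in control libraries, and H2-T23 averaged 7.95% and 8.93%.

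Light and heavy chains were lower by a like proportion. There were 2.26, 2.05 and 2.17 B2m TPM per heavy chain TPM in Treg co-culture libraries, against 2.29, 2.17 and 2.12 in control libraries, and the groups overlapped. The ratio of H2-D1 to H2-K1 overlapped likewise, at 1.50, 1.63 and 1.47 in Treg co-culture libraries and 1.43, 1.59 and 1.47 in control libraries. Leaving out Treg co-culture 1, the Treg co-culture mean was 0.759 of the control mean for the classical sum (0.752 with it) and 0.788 for the non-classical sum (0.791 with it). The same ratio was 1.03 for the non-classical share (1.04 with it) and 0.963 for B2m per heavy chain (0.985 with it). Sums and ratios over chosen members are descriptions and carry no test.

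**Figure D3:**
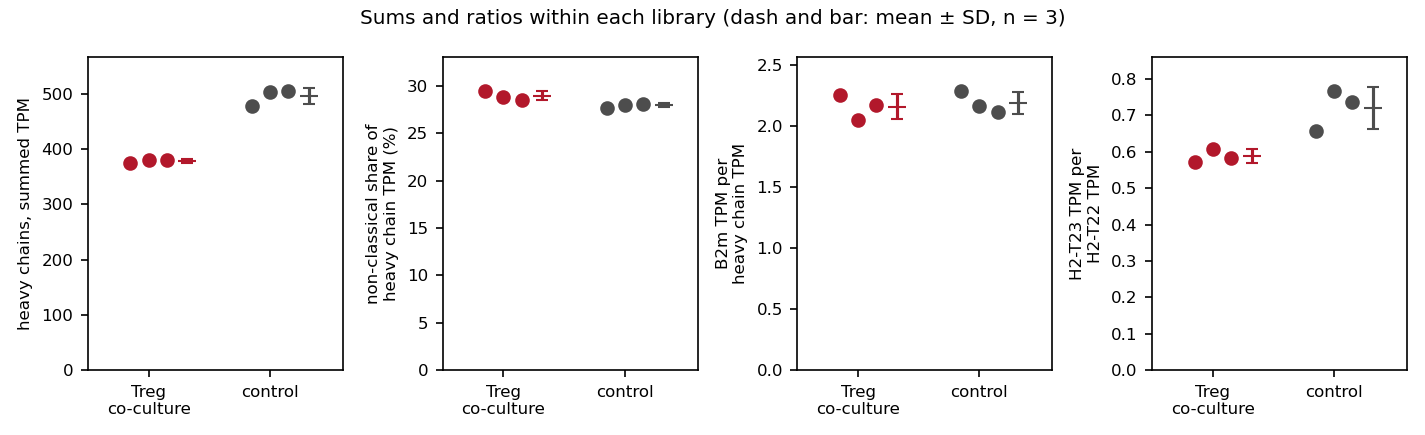
Points are the 3 Treg co-culture (red) and 3 control (grey) libraries, with the mean ± SD beside them, and all axes start at 0. The panels give summed heavy chain TPM, the non-classical share, B2m per heavy chain and H2-T23 per H2-T22. Summed heavy chain TPM averaged 379 in Treg co-culture libraries and 497 in control libraries, while B2m per heavy chain overlapped between the groups (2.16 ± 0.103 and 2.19 ± 0.0898).

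**Figure D4:**
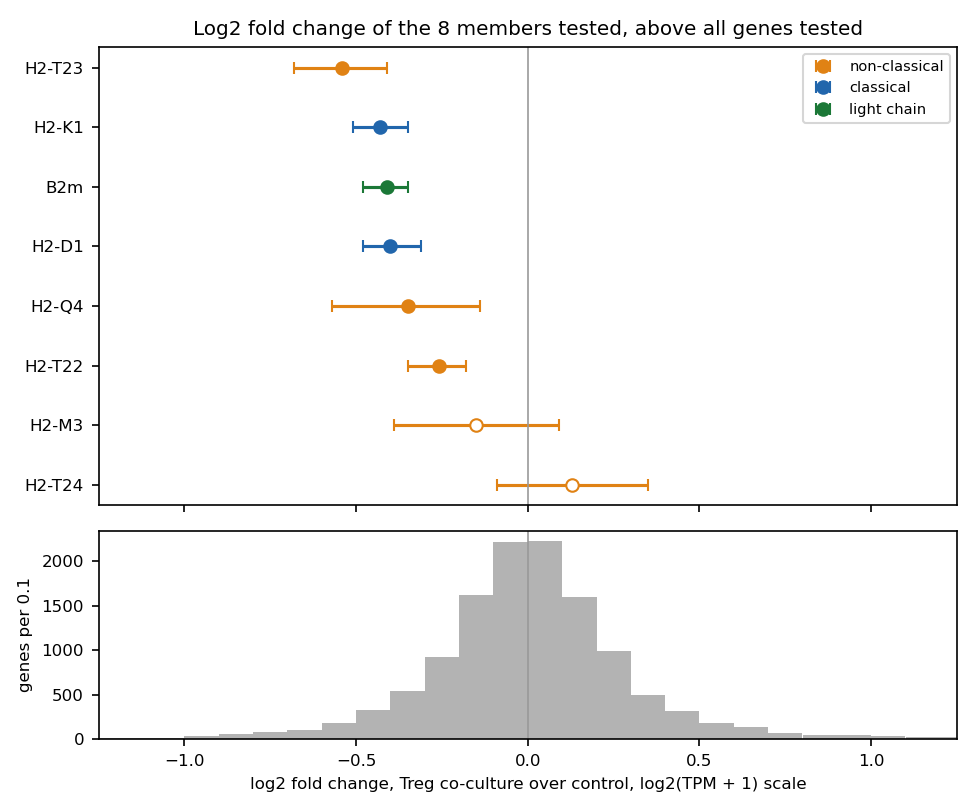
The upper panel gives the log2 fold change of each of the 8 members tested with its 95% interval from limma, filled where the adjusted p was under 0.05, and the lower panel counts all genes tested in steps of 0.1 on the same axis, without those beyond its ends. The 6 filled points run from -0.54 for H2-T23 to -0.26 for H2-T22, while all genes centre on 0.00.

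Class I genes resemble one another, and neither the read length nor the handling of reads that match several genes is stated in the sources used here. Of the distinct stretches of 100 bases in the GENCODE M21 protein-coding transcripts of B2m, H2-K1, H2-M3 and H2-T24, 0% occurred in transcripts of another gene. The share was 4.09% for H2-D1, 2.66% for H2-Q4, 7.28% for H2-T23, 12.4% for H2-T22, 10.8% for H2-Q6 and 17.2% for H2-Q7. With stretches of 50 bases it was 6.87% for H2-K1, 13.9% for H2-D1, 24.3% for H2-Q4, 28.8% for H2-T23, 32% for H2-Q6, 34.9% for H2-Q7, 43.9% for H2-T22 and 3.17% for H2-T24. Of all H2-T22 stretches of 50 bases, 37.5% occurred in H2-T10, a gene that was not found by symbol and was not analysed here. The part of H2-T10 reads in the H2-T22 values was not tested. The separate values of H2-D1, H2-T22, H2-T23 and the H2-Q genes are therefore uncertain, while B2m and H2-M3 shared 0% and 0.576% at 50 bases. These shares do not give the size of an error in TPM, which also depends on the level of the other gene. Heavy chain sequence also differs between mouse strains, and the part of a mismatch to the reference strain in the levels was not tested.

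Some of the genes that make and load class I were lower as well, and others were not. Of 15 transcriptional regulators tested, 5 fell and 1 rose, with a median log2 fold change of -0.06. Beside these counts, 18.0% of all genes tested fell and 19.8% rose. In each of the 6 fits that left out 1 library, 4 were lower, but not the same 4 each time. Stat2 and Irf9, factors that carry the type I interferon signal to DNA, had log2 fold changes of -0.76 (SE 0.07, limma adjusted p = 1.27e-05) and -0.62 (SE 0.08, limma adjusted p = 0.000181). The X-box binding subunits Rfx5 (-0.35) and Rfxank (-0.30) passed the test as well, whereas the CCAAT-binding subunit Nfyc rose (0.21). Nfyc lost its call without Treg co-culture 1, Treg co-culture 3, control 1 or control 2, and with quantile normalization, which left 0 higher. Rfx5 lost its call without Treg co-culture 2 or control 3. Rfxank (limma adjusted p = 0.0388) lost it with the replicate block (limma adjusted p = 0.057) and without any 1 library other than control 3 (0.0554 to 0.113). Irf1, an interferon-induced activator of class I promoters, had 19.4 ± 1.47 TPM in Treg co-culture libraries and 19.6 ± 1.53 TPM in control libraries. The class I transactivator Nlrc5 lay under the filter, at 0.631, 0.528 and 0.532 TPM in Treg co-culture libraries and 1.00, 1.03 and 0.830 TPM in control libraries, with no overlap.

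Of 14 genes for peptide supply and loading, 5 fell and 2 rose, with a median log2 fold change of -0.12. Of all genes tested, 18.0% fell and 19.8% rose. The lower extremes were the immunoproteasome subunit Psmb9 (-0.71, SE 0.17, limma adjusted p = 0.00908) and the loading factor tapasin, Tapbp (-0.46). Psmb9 was low, at 1.81 ± 0.634 TPM in Treg co-culture libraries and 3.52 ± 0.384 TPM in control libraries (mean ± SD). The other immunoproteasome subunits, Psmb8 (-0.07) and Psmb10 (0.02), did not pass. The 2 that rose, by little, were the chaperone Calr (0.08) and the disulphide isomerase Pdia3 (0.06). With quantile normalization Calr lost its call (limma adjusted p = 0.258), which left 1 higher. Pdia3 lost its call without Treg co-culture 2, Treg co-culture 3, control 2 or control 3, which again left 1 higher. Of 5 MHC class II genes tested, Ctss (-0.75), the protease cathepsin S that trims the class II invariant chain, was the 1 that fell, and 2 fell without Treg co-culture 1 or without control 1.

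Other genes of the class I fold moved both ways. Of 30 such genes listed 20 were found, and of 9 tested 4 fell and 3 rose. Shares over all genes tested were 18.0% lower and 19.8% higher. Ulbp1, 1 of those that rose, lost its call without Treg co-culture 2, Treg co-culture 3, control 1 or control 3, and Hfe, 1 of those that fell, without Treg co-culture 3 or control 3. In the fit without Treg co-culture 1, 5 fell. Mr1, which presents vitamin metabolites to MAIT cells, had 26.7, 21.5 and 25.0 TPM in Treg co-culture libraries, against 32.4, 36.3 and 37.6 TPM in control libraries (log2 fold change -0.52, SE 0.08, limma adjusted p = 0.00076). Fcgrt, the B2m-bound receptor that recycles antibody and albumin, had 139.5 to 145 TPM in Treg co-culture libraries, against 194 to 203 TPM in control libraries (-0.48, limma adjusted p = 1.54e-06). The lipid-presenting Cd1d1 (-0.40) and the iron regulator Hfe (-0.34) were the other two that fell, and like Mr1 and Fcgrt both pair with B2m.

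The 3 that rose, Raet1d, Raet1e and Ulbp1, encode ligands of the activating receptor NKG2D, which have a class I-like fold and bind no B2m. Raet1d had 39.6, 37.7 and 35.2 TPM in Treg co-culture libraries, against 21.8, 20.1 and 22.99 TPM in control libraries. It changed by 0.77 on the log2 scale (SE 0.07, limma adjusted p = 1.16e-05). Raet1e had 50.4, 47.4 and 46.8 TPM in Treg co-culture libraries, against 37.4, 31.9 and 28.5 TPM in control libraries, with a log2 fold change of 0.56 (SE 0.08, limma adjusted p = 0.00053). Neither gene's groups overlapped. In the fit without Treg co-culture 1 the log2 fold changes were 0.73 for Raet1d, 0.53 for Raet1e, -0.59 for Mr1 and -0.47 for Fcgrt. Raet1 genes are close copies, so their separate values are uncertain.

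**Figure D5:**
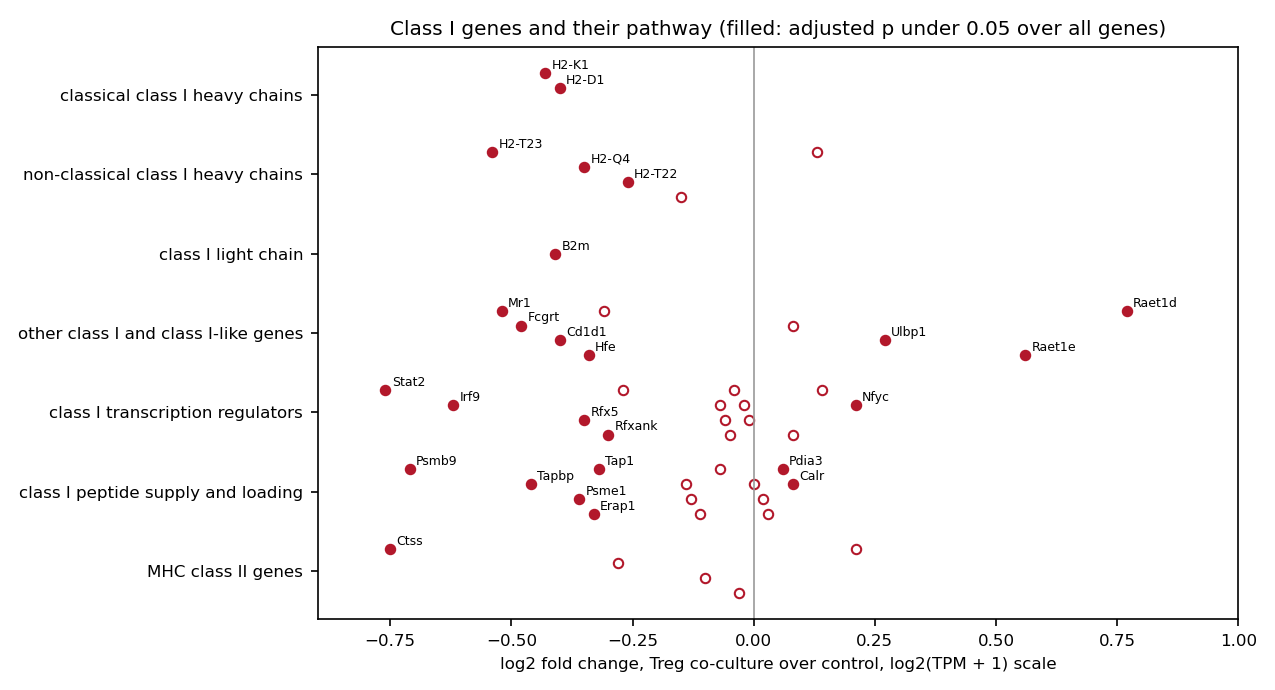
Each point is 1 tested gene, placed by its log2 fold change (Treg co-culture over control), filled and named where the adjusted p over all genes was under 0.05; rows are the gene lists, with 1 regulator not shown. Light chain and classical chains lie near -0.4, whereas Raet1d, Raet1e and Ulbp1 lie between 0.27 and 0.77.

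By the smallest root-mean-square difference of centred log2 values over the 6 libraries, the genes most like B2m among 12044 compared were Bicc1 (difference 0.017), Rnf167 (0.022) and Cav1 (0.023). Nearest to H2-K1 were Nox4 (0.022), Zhx1 (0.024) and Pdcd4 (0.027), and nearest to H2-D1 were Atf5 (0.021), Colec12 (0.021) and Tcn2 (0.022). Among the members themselves, the closest pair was H2-K1 and B2m (0.041). With 2 groups of 3 libraries, likeness on this measure mostly means a fall of like size.

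In bulk RNA, fewer cells of a type and less RNA per cell cannot be told apart, and T cells and macrophages express much class I. Of 13 T cell and Treg markers, Cd3d, Cd3e, Cd3g, Cd2, Cd4, Il2ra and Ctla4 were listed at 0 in all 6 libraries. The list summed to between 3.79 and 4.31 TPM in Treg co-culture libraries and between 3.96 and 4.15 TPM in control libraries, led by Ikzf2, whose mean was 2.36 TPM in Treg co-culture libraries and 2.25 TPM in control libraries. The 11 leukocyte and macrophage markers summed to between 73.0 and 85.3 TPM in Treg co-culture libraries and between 98.5 and 106 TPM in control libraries. Lyz2, the 1 of these that passed the test, averaged 44.7 ± 6.26 TPM in Treg co-culture libraries and 65.9 ± 4.18 TPM in control libraries (limma adjusted p = 0.000637). Among the 9 tested of this list the median log2 fold change was -0.28, with Csf1r alone above 0 (0.19). The 5 endothelial markers summed to between 33.3 and 35.2 TPM in Treg co-culture libraries and between 37.6 and 39.9 TPM in control libraries. They went both ways, with Cdh5 (log2 fold change -0.45) and Tek (-0.36) lower and Kdr (0.27) higher past the threshold. The T cell and Treg sums overlapped between the groups. The leukocyte, endothelial and stromal sums were lower in Treg co-culture libraries, as class I was, and the muscle sum was higher, each with no overlap. Most of the stromal sum was Col1a1, at means of 5939 TPM in Treg co-culture libraries and 6705 TPM in control libraries. Of the 11 stromal markers, 7 fell and 3 rose past the threshold. The part of these cell types in the class I result was not tested.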

How the data were processed

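Polyadenylated RNA of 6 libraries was captured on beads, fragmented by heat and made into cDNA libraries, per the labels' protocols. The deposited table, made by the authors, holds TPM for each library under NCBI Gene numbers. The submitters' processing notes name GRCm38, mm10 and GRCm39 with no role, and no source used here gives the aligner, the counting tool or the annotation. Of 22186 gene numbers, 21992 (99.1%) matched a symbol in a RefSeq table of GRCm38.p6.

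Values became log2(TPM + 1), a scale on which low genes show too small a fold change. The 12405 genes averaging 1 TPM or more were tested with limma (version 3.58.1, R 4.3.3, mean-variance trend, no block). P-values were adjusted by Benjamini-Hochberg over all genes tested, with a threshold of 0.05, and the step was tested on simulated data. SE and intervals are limma's moderated ones. No 2 libraries held equal values for more than 60 of the 13935 genes above 0 in all of them, so each library was counted as 1 replicate. The labels say that libraries of the same number share a batch, so the numbers pair the samples. After group means were removed, the correlation within batches 1 to 3 was 0.0115, -0.0146 and 0.00402.

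The members, gene lists and motifs were chosen with earlier results of these data known. Named are all members, the 2 highest and 2 lowest log2 fold changes past the threshold of each further list, the 3 nearest genes of B2m, H2-K1 and H2-D1, and up to 3 abundant markers per marker list. Nlrc5, Irf1, Rfx5, Rfxank, Psmb8, Psmb10, Hfe, Ulbp1, Lum, Pdgfra, Cd44, Lyz2 and further markers were named beyond that rule after their values were seen. Alternatives changed the pseudocount (0.1, 0.01), filter (none, 5 TPM), scaling, variance model, block, threshold (0.01, 0.1) and the libraries used. Python 3.11.15, pandas 2.3.3, Biopython 1.88 and matplotlib 3.10.9 were used for motifs, tables and plots. Genes of the lists without a value are not analysed here, and 1 regulator, included in the counts, is not reported by name.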

Additional observations from a re-analysis of the deposited data

How the results depend on the processing

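Of the 8 members tested, 6 were lower and 0 higher past the threshold with pseudocounts of 0.1 and 0.01, no filter (10 tested), a filter of 5 TPM (7 tested), quantile normalization, scaling by median ratios, totals taken without ribosomal protein and mitochondrial genes, robust eBayes, eBayes with no trend, a threshold of 0.1 and the replicate block. At a threshold of 0.01 the lower count was 5, and over the fits that left out 1 library it was 5 or 6, the member lost each time being H2-Q4. With the replicate block, 2123 of all genes fell and 2369 rose, and no call of a member changed. No member reversed its direction under any of these settings. Scaling moved the median log2 fold change of all genes to between -0.006 and -0.002, against 0.002. Over all genes the counts were 1417 lower and 1626 higher at a threshold of 0.01. Leaving out 1 library gave 1840 to 1973 lower and 2055 to 2245 higher genes. The non-classical sum in Treg co-culture libraries was 0.791 of that in control libraries, and 0.774 to 0.801 when a control library was left out. Without the trend, 0 of the regulators and 0 of the peptide supply genes rose, and Ulbp1 lost its call (limma adjusted p = 0.0585). With no filter, Rfxank, Nfyc, Pdia3, Hfe and Ulbp1 lost their calls (limma adjusted p from 0.0511 to 0.0862). At a threshold of 0.01 the regulators had 3 lower and 0 higher genes, and the other class I-like genes 2 lower and 2 higher. Sequencing depth is unknown, so no limit of detection can be given for H2-Q6, H2-Q7 or Nlrc5, and 3 against 3 libraries cannot give an exact permutation p under 0.1.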
